A study of Mus musculus with 2 samples.

Results

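The genes described here are 9 parts of the TGF-beta pathway and its relatives, chosen by symbol from the 31053 genes of the files: the ligand Tgfb1, the receptors Tgfbr1 and Tgfbr2, the inhibitors Smad7, Ski and Skil, and the Id genes Id1, Id2 and Id3. They were measured by 10x Genomics 3' single-cell RNA sequencing in sorted mouse bone marrow LSK cells, which lack lineage markers and carry Sca1 and Kit. This sort fraction holds the blood stem cells and the multipotent progenitors. The study has 1 library from control mice and 1 from mice that had received 5 Gy to the whole body 15 days earlier. Both came from C57BL/6J mice aged 6 to 8 weeks, with no engineered allele named in either group. How many animals each library holds is not given in the sources used here, so treatment, animals and library cannot be told apart.

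The kept data were 7188 control cells with 138080503 unique molecular identifiers (UMIs, each a counted RNA molecule) and 5112 irradiated cells with 162748209 UMIs. The median cell had 16083.5 UMIs in the control library and 29615 in the irradiated library, and 11 kept barcodes occurred in both. The sort genes Kit and Ly6a, which encodes Sca1, were present in both libraries at 132 and 156 UMIs per 1000000 UMIs of the library (CPM) in control cells and 73.5 and 218 CPM in irradiated cells. Levels below are CPM of UMIs summed over cells. A difference is the log2 ratio of irradiated over control CPM, with an exact 95% interval that covers counting error only. With 1 library a group there is no test, and a gene is called higher or lower if the libraries differed by a ratio of 1.5 or more and their mean reached 5 CPM.

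TGF-beta is secreted in a latent form, and once freed it binds the type II receptor Tgfbr2, which activates the type I receptor Tgfbr1. The receptors phosphorylate Smad2 and Smad3, which enter the nucleus with Smad4 and act on transcription. Smad7 is induced by the pathway and blocks the receptors, while Ski and Skil (also called SnoN) hold Smad complexes in a repressed state. Id proteins lack a DNA-binding domain and tie up E proteins such as Tcf3, Tcf4 and Tcf12. BMP signals are well-known inducers of Id1, Id2 and Id3. In marrow, TGF-beta is known as a signal that keeps stem cells out of cycle.

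Promoter windows from RefSeq (build GRCm38.p6) matched 6 of the 9 genes, namely Tgfb1, Tgfbr1, Tgfbr2, Ski, Id2 and Id3. The 250 bases just before the start of the ligand and of its receptor pair are shown because these 3 genes, which act in a single signalling step, differed in level and in direction between the libraries. Capitals mark GGGCGG, a GC box, or GGCGCC, a Smad-binding motif of the GC type, in these letters or in those of the other strand. The windows are chr7:25686752-25687001 on the plus strand for Tgfb1, chr4:47352972-47353221 on the plus strand for Tgfbr1 and chr9:116175364-116175613 on the minus strand for Tgfbr2.
Tgfb1: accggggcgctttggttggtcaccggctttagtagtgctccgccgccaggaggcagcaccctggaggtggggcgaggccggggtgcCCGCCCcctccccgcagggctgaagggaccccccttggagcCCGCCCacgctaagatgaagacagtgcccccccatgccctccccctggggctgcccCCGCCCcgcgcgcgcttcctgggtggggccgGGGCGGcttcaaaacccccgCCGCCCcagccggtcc
Tgfbr1: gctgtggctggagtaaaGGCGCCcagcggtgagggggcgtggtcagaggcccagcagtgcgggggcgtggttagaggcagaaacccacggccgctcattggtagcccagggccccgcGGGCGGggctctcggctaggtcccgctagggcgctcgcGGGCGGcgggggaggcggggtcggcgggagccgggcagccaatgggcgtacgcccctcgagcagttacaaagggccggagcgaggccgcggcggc
Tgfbr2: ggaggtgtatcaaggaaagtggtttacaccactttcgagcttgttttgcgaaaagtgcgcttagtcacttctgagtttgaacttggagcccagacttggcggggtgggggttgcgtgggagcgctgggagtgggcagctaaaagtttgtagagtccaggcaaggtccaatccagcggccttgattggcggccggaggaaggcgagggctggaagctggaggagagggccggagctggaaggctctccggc
With the 50 bases after the start included, the Tgfb1 window held 6 matches to GGGCGG, and the Tgfbr1 window held 2 matches to GGGCGG and 1 to GGCGCC. The Tgfbr2 window held none of the motifs searched. The other motifs searched on both strands were GTCTAGAC and CAGACA, which are Smad-binding sequences, and neither occurred in these 3 windows. A further Tgfbr1 window of the table, chr4:47385966-47386265, held 1 match to CAGACA and none to the other motifs. Of all 32851 windows of this length, 35.7% held GGGCGG, 11.9% GGCGCC, 21.0% CAGACA and 0.213% GTCTAGAC.

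All 9 genes are protein-coding, and GENCODE M21 annotates no overlapping gene for any of them (build GRCm38). The 3 signalling genes shown above lie at chr7:25687002-25705077 (Tgfb1, ENSMUSG00000002603), chr4:47353222-47414931 (Tgfbr1, ENSMUSG00000007613) and chr9:116084293-116175360 (Tgfbr2, ENSMUSG00000032440). The inhibitors lie at chr18:75367529-75395935 (Smad7, ENSMUSG00000025880), chr4:155154075-155222592 (Ski, ENSMUSG00000029050) and chr3:31095058-31122577 (Skil, ENSMUSG00000027660). The Id genes are short and lie at chr2:152736251-152737410 (Id1, ENSMUSG00000042745), chr12:25093799-25097140 (Id2, ENSMUSG00000020644) and chr4:136143497-136145755 (Id3, ENSMUSG00000007872).

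Over all cells, the type II receptor, the 3 inhibitors and Id3 were lower in the irradiated library, while the ligand, Id1 and Id2 differed by less than 1.5-fold. Thus 5 of the 9 genes were called lower and 0 higher, against 13.8% and 5.19% of the 9032 genes that reached the minimum. At a ratio of at least 2, the count lower was 4 (Tgfbr2, Smad7, Skil and Id3), against 4.79% of all tested genes. The median log2 ratio of the 9 was -0.60, and that of all tested genes was -0.06.

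The ligand Tgfb1 was at 188 CPM in the control library and 216 CPM in the irradiated one, a log2 ratio of 0.20 (95% interval 0.18 to 0.22). The type I receptor Tgfbr1 stood at 14.2 and 10.6 CPM (-0.43, -0.52 to -0.33). The type II receptor Tgfbr2 stood at 20.3 and 9.20 CPM (-1.14, -1.23 to -1.05). The ligand was thus slightly higher and both receptors were lower, with Tgfbr2 past the 1.5-fold limit and Tgfbr1 within it. Among thinned cells, each drawn down to 5000 UMIs so that depth was equal, 10.4% of control cells and 5.64% of irradiated cells held a Tgfbr2 UMI. Without thinning the shares were 30.2% and 24.5%.

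Smad7, the receptor-level inhibitor, was at 167 CPM in the control library and 68.1 CPM in the irradiated one, a log2 ratio of -1.29 (-1.32 to -1.26). Its UMIs were spread over many cells: 52.5% of thinned control cells and 30.1% of thinned irradiated cells held at least 1, and the unthinned shares were 80.6% and 67.8%. Skil, a nuclear repressor of Smad complexes, was at 48.5 and 24.0 CPM (-1.02, -1.07 to -0.96). Its relative Ski was at 13.8 and 9.15 CPM (-0.60, -0.69 to -0.50). All 3 inhibitors were called lower, but the Ski ratio lies close to the 1.5-fold limit and was within it in some alternatives, where its log2 ratio ranged from -0.65 to -0.44.

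Among the Id genes, Id3 differed most, at 15.0 CPM in the control library and 5.31 CPM in the irradiated one, 2.83-fold lower (log2 interval -1.62 to -1.39). Id1 was at 29.5 and 33.6 CPM (0.19, 0.13 to 0.25). Id2 was at 14.8 and 18.2 CPM (0.30, 0.22 to 0.38). The 3 Id genes therefore did not share a direction: Id3 was called lower, and Id1 and Id2 were slightly higher. The Id2 ratio depended on a few cells of other types, described below. The 10 cells with the most UMIs of a gene held 10.3% and 13.1% of the Id2 UMIs of the 2 libraries, compared with 1.11% and 1.89% for Smad7.

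**Figure D1:**
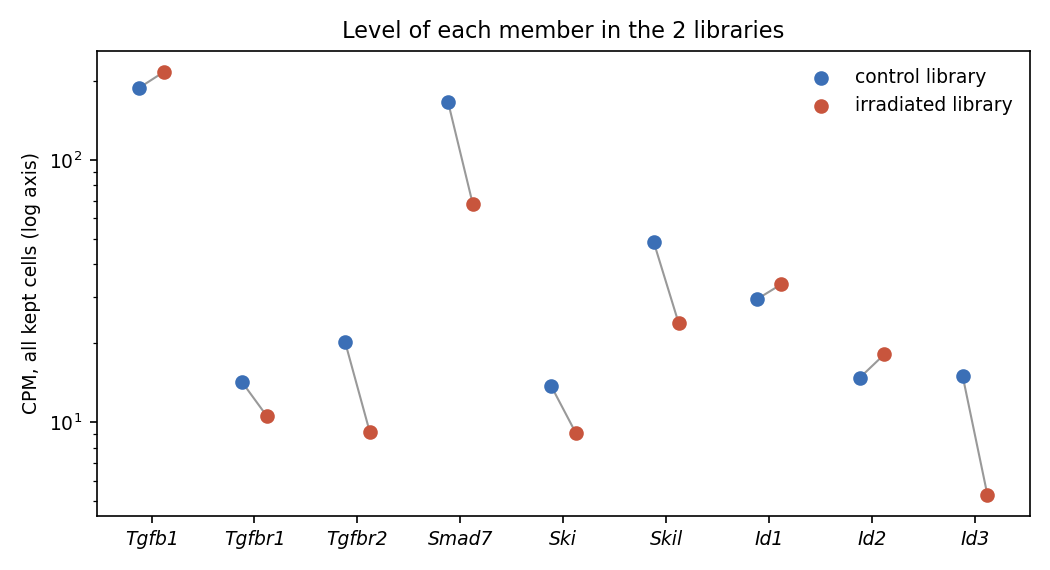
Level of each of the 9 genes in CPM (log axis) over all kept cells, with 1 point for the control library and 1 for the irradiated library joined by a line. Smad7 (167 to 68.1 CPM), Id3 (15.0 to 5.31), Tgfbr2 (20.3 to 9.20) and Skil (48.5 to 24.0) slope down most, and Tgfb1, Id1 and Id2 slope up slightly.

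The libraries differed in which cells they held. Cells were clustered without the 9 genes and without the other pathway genes, and clusters were named from marker lists. The HSC-like class (haematopoietic stem cell markers such as Hlf, Mecom and Procr) held 1750 control and 345 irradiated cells, and the lymphoid-primed-like class (Flt3, Dntt, Satb1) held 2525 and 444. The neutrophil-primed-like class (Elane, Mpo, Prtn3) held 114 and 1077, the megakaryocyte-primed-like class (Pf4, Itga2b) 201 and 479, and the erythroid-primed-like class 49 and 489. An S-phase-gene cluster (1077 and 1072 cells) and a mitotic-gene cluster (1286 and 1045) were left unnamed. Classes with fewer than 100 cells in a library are given as levels only.

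Much of the lower level of the inhibitors was seen again when only the cell mix was exchanged. Giving the irradiated mix of 12 clusters the control levels yielded a log2 ratio of -0.83 for Smad7, -0.79 for Skil, -0.66 for Id3 and -0.52 for Tgfbr2. Giving the irradiated levels the control mix left -0.43 for Smad7, -0.23 for Skil, -0.35 for Id3 and -0.51 for Tgfbr2. None of these 4 genes passed 1.5-fold at the control mix, although Tgfbr2 did so (-0.61) at a mitochondrial limit of 5%, and the corresponding values for Tgfbr1 and Ski were -0.11 and -0.38. Shares of cells and levels per cell are both in the all-cell ratio, and this exchange separates them only as far as the clusters describe the cells.

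Id1 and Id2 went the other way. The mix alone would have put Id1 at a log2 ratio of -0.31, and at the control mix it was 0.60, compared with 0.19 as measured. For Id2 the values were -0.11 from the mix, 0.49 at the control mix and 0.30 as measured. At the control mix Id1 was thus the single gene of the 9 called higher, and 0 were called lower, against 1.75% and 3.88% of the 9032 tested genes. The members' median was then -0.23 and that of all tested genes -0.03. These counts lie near the limit and changed with the clustering and the filters. Id1 ranged from 0.55 to 0.67, on both sides of it. Id2 was past it in 4 of 5 alternatives and reached 1.19 at resolution 0.5. At the irradiated mix, the values were 0.50 for Id1, -0.46 for Smad7, -0.84 for Id3 and -0.62 for Tgfbr2, so Id3 and Tgfbr2 passed 1.5-fold under these weights.

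**Figure D2:**
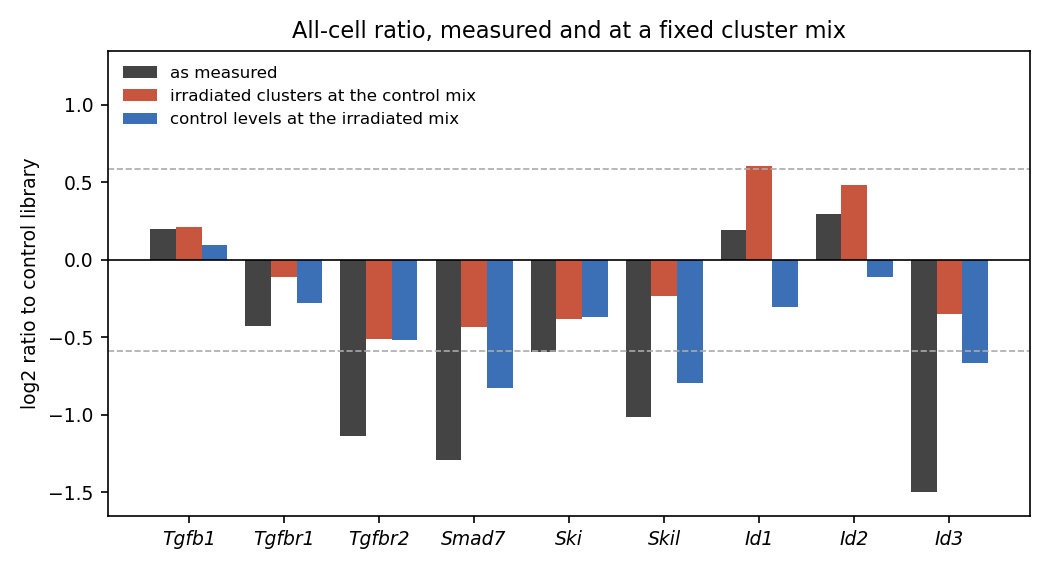
Log2 ratio to the control library for each of the 9 genes (bars from 0): as measured, with the irradiated level of each cluster weighted by the control mix, and with the control levels weighted by the irradiated mix. Dashed lines mark a 1.5-fold ratio; Smad7 goes from -1.29 as measured to -0.43 at the control mix, and Id1 from 0.19 to 0.60.

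Within HSC-like cells the inhibitor Smad7 was not called lower. It was at 231 CPM in the control library and 255 CPM in the irradiated one, a log2 ratio of 0.14 (0.05 to 0.23) that ranged from -0.15 to 0.26 over the alternatives. Of these cells, 59.6% of thinned control cells and 66.9% of thinned irradiated cells held a UMI (78.5% and 83.2% unthinned). Skil, which had its highest class level here, was at 125 and 109 CPM (-0.20, -0.34 to -0.06). Ski was at 30.7 and 20.4 CPM (-0.59, -0.91 to -0.28) and was called lower, but it was within the limit, between -0.52 and -0.33, in all 7 alternatives other than the one without the 2% of cells with most Ski UMIs, where it was -0.60. Both receptors differed little, with log2 ratios of -0.14 for Tgfbr1 and -0.11 for Tgfbr2, and the ligand Tgfb1 was at 154 and 203 CPM (0.40, 0.29 to 0.50).

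Id1 was called higher in HSC-like cells, at 65.9 CPM in the control library and 108 CPM in the irradiated one, a log2 ratio of 0.71 (0.56 to 0.86). Both clusters of the class showed it: cluster 4 (1037 and 234 cells) went from 45.7 to 89.8 CPM, and cluster 6 (713 and 111 cells) from 101 to 157 CPM. The 10 cells with the most Id1 UMIs held 11.4% of the control and 31.2% of the irradiated Id1 UMIs of the class. Among thinned HSC-like cells, the share with an Id1 UMI was 16.2% (interval 14.5% to 18.0%) in the control library and 23.0% (interval 18.6% to 27.9%) in the irradiated one. These intervals cover only the drawing of cells within a library, not differences between animals or libraries. The unthinned shares were 24.3% and 37.7% at median depths of 11371.5 and 13502 UMIs. As a measure of background from a class where Id1 was low, B lineage-like cells held an Id1 UMI in 1.96% of 102 thinned control cells. In thinned irradiated B lineage-like cells it was 0 of 23, a count that allows up to 13.04%. Median depths of this class were 22435 and 24135 UMIs. Other small classes were less low in the irradiated library. T/NK lineage-like cells held an Id1 UMI in 0 of 41 thinned control and 5 of 53 thinned irradiated cells (9.43%). For the class II MHC cluster, described below, the counts were 0 of 22 and 3 of 71 (4.23%). Id2 (14.7 and 19.97 CPM, 0.44) and Id3 (20.4 and 25.01 CPM, 0.29) had higher irradiated levels within 1.5-fold, and the Id3 interval, -0.01 to 0.59, included 0. By cluster, Id3 was past the limit in cluster 6 (18.1 and 28.1 CPM, 0.63, 0.06 to 1.17), from 144 and 36 UMIs. In cluster 4 it was at 0.14 (-0.23 to 0.49). Of the 9 genes, 1 was called higher and 1 lower in this class, against 3.3% and 6.16% of all tested genes.

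In lymphoid-primed-like cells Id2 was called higher, at 18.3 CPM in the control library and 37.7 CPM in the irradiated one, a log2 ratio of 1.04 (0.85 to 1.23) that ranged from 0.97 to 1.70 over the alternatives. This was not shared by both clusters of the class: cluster 3 (1134 and 298 cells) went from 20.05 to 46.2 CPM (1.21), and cluster 2 (1391 and 146 cells) from 16.8 to 17.0 CPM (0.02). Cluster 2 held most of the control cells of the class and cluster 3 most of the irradiated cells. Id1 was at -0.18 for the class but at 0.27 in cluster 2 and 0.06 in cluster 3, with intervals that included 0. Of thinned cells, 8.22% of control and 14.2% of irradiated cells held an Id2 UMI (16.9% and 34.0% unthinned), against 0 of 102 and 1 of 23 thinned B lineage-like cells; the 0 allows up to 2.94%.

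Tgfbr2 was called lower in the lymphoid-primed-like class, at 23.4 and 13.5 CPM (-0.79, -1.07 to -0.51), and it was lower in both clusters, by -0.62 in cluster 2 and -0.75 in cluster 3. Ski was called lower at 10.2 and 6.44 CPM (-0.66, -1.09 to -0.26) and was within the limit in some alternatives, the smallest log2 ratio being -0.38. Smad7, highest in this class in control cells, was at 247 and 167 CPM (-0.57, -0.65 to -0.49), just within the limit for the class and past it in each cluster (-0.67 and -0.61). The counts were 1 gene higher and 2 lower, against 3.02% and 6.09% of all tested genes.

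Megakaryocyte-primed-like cells held the highest Tgfb1 level of any class, 275 CPM in the control library and 362 CPM in the irradiated one (0.40, 0.30 to 0.49). TGF-beta is known to be stored in platelets, which megakaryocytes shed. Id1 was called higher here, at 27.8 and 60.1 CPM (1.11, 0.83 to 1.41), and 9.55% of thinned control and 20.2% of thinned irradiated cells held a UMI (22.4% and 44.1% unthinned). With each cell named from its own markers instead of from its cluster, the Id1 log2 ratio was 0.56 and no longer called. In this class 10 cells held 48.3% of the 118 control and 21.5% of the 650 irradiated Id1 UMIs. Smad7 differed little (170 and 157 CPM, -0.11, -0.24 to 0.02). Of the 8 members at the minimum, 1 was called higher and 0 lower, against 2.61% and 7.62% of all tested genes.

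Neutrophil-primed-like cells had the lowest level of Smad7 (21.3 CPM control, 15.4 irradiated) and of Skil (4.95 and 5.30 CPM) of the 6 classes compared. Id1 was called higher, at 18.3 and 29.7 CPM (0.70, 0.38 to 1.03), but 10 cells held 65.9% of the 85 control Id1 UMIs, and the log2 ratio ranged from 0.62 to 2.30 over the alternatives. The control side of this class also held more mature cells: the 7 mature neutrophil markers, such as S100a8 and Ltf, summed to 9252 CPM in the control library and 118 CPM in the irradiated one, with none at 0 in either, and their part in these ratios was not tested. Of the 7 members at the minimum here, 1 was called higher and 0 lower, against 2.56% and 3.73%, and in the 8 alternatives 1 to 3 were called lower. Id3 was below the minimum (3.88 and 0.575 CPM, from 18 and 28 UMIs), and so was Tgfbr2.

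The unnamed mitotic-gene and S-phase-gene clusters showed the lower levels of Id3 and Tgfbr2. In the mitotic-gene cluster Id3 was at 11.0 and 5.33 CPM (-1.05, -1.29 to -0.82) and Tgfbr2 at 15.9 and 8.98 CPM (-0.83, -1.01 to -0.64). In the S-phase-gene cluster Id3 was at 13.5 and 5.53 CPM (-1.29, -1.56 to -1.01) and Tgfbr2 at 17.2 and 11.1 CPM (-0.63, -0.84 to -0.42). Id3 was thus less than 1.5-fold different in the HSC-like and lymphoid-primed-like classes as a whole, and past this limit in both of these clusters. The Id3 ratio in the mitotic-gene cluster was within 1.5-fold under a single alternative, 30 neighbours taken from all cells (-0.54), and at resolution 2 it lay at the limit in both clusters (-0.59 in each). Tgfbr2 in the S-phase-gene cluster was within 1.5-fold in 6 of 7 alternatives, between -0.57 and -0.38, and past it (-0.62) only without the 2% of cells with most Tgfbr2 UMIs.

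Of the 6 classes compared, Smad7 differed most in the mitotic-gene cluster, at 122 CPM in the control library and 65.3 CPM in the irradiated one (-0.90, -0.97 to -0.83). Id1 was higher there, at 18.9 and 33.6 CPM (0.83, 0.70 to 0.96). With 30 neighbours from all cells, Smad7 was at -0.32 and Id1 at 0.51, both within the limit, and at resolution 2 Smad7 was at -0.45. The clusters with cell cycle genes held marker RNA of more than 1 lineage. In the mitotic-gene cluster the 9 neutrophil-primed markers summed to 1569 CPM in the control library and 3224 CPM in the irradiated one. The 8 lymphoid-primed markers there summed to 908 and 529 CPM. In the S-phase-gene cluster these sums were 1742 and 3225 CPM for the neutrophil-primed list and 378 and 254 CPM for the lymphoid-primed list. The neutrophil-primed sum was higher in the irradiated library in every compared class, such as HSC-like cells (751 and 1002 CPM), and free RNA was not corrected. The part of these marker differences in the lower Smad7, Id3 and Tgfbr2 levels was not tested. In the mitotic-gene cluster 1 member was called higher and 3 lower, against 2.46% and 7.39% of all tested genes, and in the S-phase-gene cluster 0 and 2, against 2.15% and 5.86%.

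Across the 6 classes, Id1 was called higher in 4 (HSC-like, megakaryocyte-primed-like, neutrophil-primed-like and mitotic-gene). The megakaryocyte-primed-like and mitotic-gene calls were each lost in an alternative, with lowest log2 ratios of 0.56 and 0.51. The neutrophil-primed-like call rests on 85 control UMIs. Tgfbr2 was called lower in 3 (lymphoid-primed-like, mitotic-gene and S-phase-gene, the last lost in 6 of 7 alternatives). How many of all genes were called in as many classes was not counted. Smad7 was called lower in 1 class and Skil in 0, although both were called lower over all cells. Tgfbr1 had a ratio below 1 in 6 of 6 classes, never past the limit. Its interval excluded 0 only in the mitotic-gene cluster (-0.44, -0.62 to -0.26). By cluster, the Tgfbr1 log2 ratio was above 0 in cluster 2 (0.24) and cluster 6 (0.14), with intervals that included 0. Tgfb1 had a ratio above 1 in 5 of 6 classes.

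**Figure D3:**
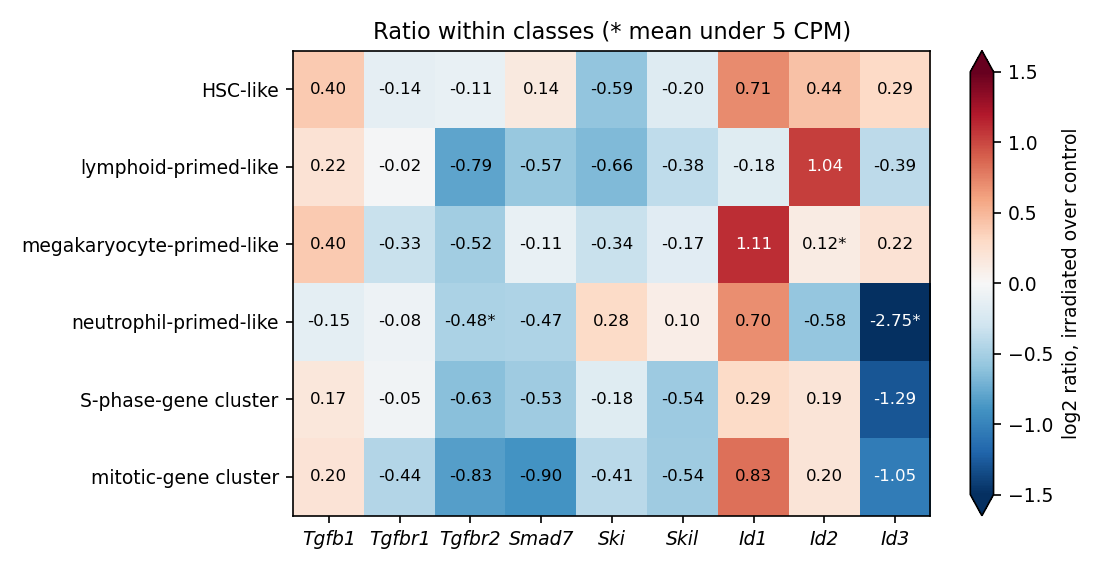
Log2 ratio of irradiated over control CPM for the 9 genes (columns) in the 6 compared classes (rows), with red for higher and blue for lower and the colour scale limited to 1.5 either way. Id1 is red in all rows but the lymphoid-primed-like one, Smad7 ranges from 0.14 in HSC-like to -0.90 in mitotic-gene cells, and asterisks mark pairs with a mean under 5 CPM.

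The levels differed far more between classes than between libraries for the inhibitors. Over the 6 compared classes, the highest Smad7 level was 11.6 times the lowest in the control and 16.5 times in the irradiated library, and for Skil the values were 25.1 and 20.5. Tgfb1 was nearly even, with 1.79 and 2.07. Over all 10 classes the order of the levels was alike in both libraries for Smad7 (Spearman's rho 0.95), Skil (0.90) and Id2 (0.85), and less so for Tgfbr1 (0.44), Tgfbr2 (0.47), Id3 (0.49) and Id1 (0.50). These are descriptions over 10 classes that share the same libraries.

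For Smad7 the lymphoid-primed-like (247 CPM) and HSC-like (231 CPM) classes led in control cells, followed by megakaryocyte-primed-like (170) and B lineage-like cells (163, from 111 cells). In irradiated cells HSC-like cells led (255 CPM), ahead of lymphoid-primed-like (167) and megakaryocyte-primed-like (157) cells. For Skil the HSC-like class led in both libraries (125 and 109 CPM), with megakaryocyte-primed-like cells at 84.8 and 75.2 CPM. Smad7 was thus highest in classes that were scarcer in the irradiated library, apart from the megakaryocyte-primed-like class. Skil followed this only in part. In the irradiated library its next level after the HSC-like class, 79.5 CPM, was in a small cluster led by class II MHC genes, which was more common there. It was low in the scarcer B lineage-like class (16.5 and 16.3 CPM). Both inhibitors were lowest in the neutrophil-primed-like class, which was more common in the irradiated library. The HSC-like and lymphoid-primed-like classes together held the larger part of control Smad7 UMIs (21.97% and 42.4%). In the irradiated library they held 10.9% and 13.3%. Their shares of the UMIs of all genes were 15.8% and 28.5% in the control library and 2.92% and 5.44% in the irradiated one. The Smad7 shares were above these in both libraries.

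Each Id gene had its peak in a different class. Id1 was highest in HSC-like cells in both libraries. Id2 was highest in a small cluster led by class II MHC genes (25 control and 78 irradiated cells), at 369 CPM in the control library and 878 CPM in the irradiated one. T/NK lineage-like cells (50 and 59 cells) followed at 238 and 167 CPM. The leading genes of this class also included the interferon-induced genes Ifit3, Cxcl10 and Ifit1. At resolution 2 it held 39 and 27 cells. What the other cells add to its Id2 level was not tested. Id2 is known to be needed for dendritic and natural killer cells. Id3 was highest in B lineage-like cells (111 and 24 cells), at 114 and 97.8 CPM.

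These small groups weighed heavily on Id2 over all cells. The class II MHC cluster made up 0.348% of control and 1.53% of irradiated cells, yet it held 6.02% of control and 41.4% of irradiated Id2 UMIs. In this cluster 7 of 22 thinned control cells and 55 of 71 thinned irradiated cells held an Id2 UMI. Without the class II MHC, T/NK lineage-like and B lineage-like clusters, the all-cell Id2 log2 ratio was -0.39 in place of 0.30. Without the erythroid-primed-like and neutrophil-primed-like cells, in which Id2 was low, it was 0.82. Its direction over all cells thus differed with the cells that were counted. With the cluster mix held fixed, the Id2 log2 ratio was 0.49 at the control mix and 0.41 at the irradiated mix. Of the 6 compared classes, 5 had an Id2 ratio above 1, and the neutrophil-primed-like class was at -0.58. Both exclusions were chosen after the data were seen.

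Id1 gave 0 UMIs in the 25 control cells of the class II MHC cluster and in the 24 irradiated B lineage-like cells, counts that allow up to 9.01 and 4.89 CPM. In erythroid-primed-like cells Id1 stood at 39.1 CPM in the control library and 9.53 CPM in the irradiated one, but the control side rests on 49 cells and 39 UMIs. This was opposite to its direction in HSC-like and megakaryocyte-primed-like cells, and the difference was not tested.

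**Figure D4:**
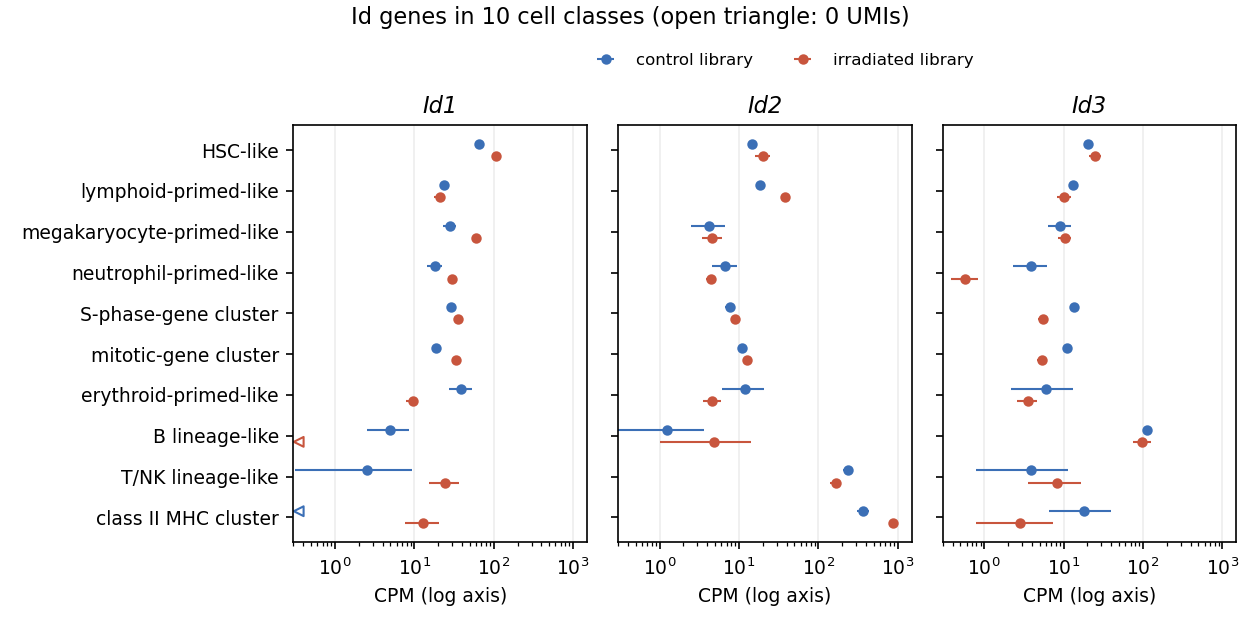
CPM (log axis) of Id1, Id2 and Id3 in 10 cell classes, 1 point per library with an exact 95% interval for counting error; open triangles mark 0 UMIs. Id1 peaks in HSC-like cells (65.9 and 108 CPM), Id2 in the class II MHC cluster (369 and 878) and Id3 in B lineage-like cells (114 and 97.8).

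Other genes of the pathway were read from a list of 63 genes found in the files, of which 36 reached the minimum. Over all cells 13 were called lower, 1 higher and 22 neither, with a median log2 ratio of -0.42, beside the 13.8% and 5.19% of all genes. Among ligands and latency proteins, 1 of 4 was lower: Ltbp3, a latent TGF-beta binding protein, was at 12.3 CPM in the control library and 2.70 CPM in the irradiated one (-2.19, -2.34 to -2.03). Nrros, which anchors latent TGF-beta on myeloid cells, was at 79.9 and 86.1 CPM (0.11). Ltbp3 was called lower in 5 of the 6 classes, including HSC-like cells (21.0 and 8.20 CPM, -1.36). In neutrophil-primed-like cells it was below the minimum (3.66 and 1.36 CPM, -1.43).

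Among the 4 receptors, Tgfbr3, the co-receptor betaglycan, was the 1 gene called higher (5.98 and 10.3 CPM, 0.78, 0.66 to 0.90). Bmpr2, the type II BMP receptor, was lower (18.9 and 10.1 CPM, -0.91). Eng, a co-receptor known from endothelium and stem cells, was at -0.55, within the limit. In HSC-like cells Tgfbr3 was at 14.6 and 27.7 CPM (0.93, 0.62 to 1.22), so the co-receptor was higher there while Tgfbr1 and Tgfbr2 differed little.

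Of the 5 Smads, the TGF-beta effector Smad3 (-0.66) and the common partner Smad4 (36.4 and 23.9 CPM, -0.61) were called lower, and Smad2 (-0.05) and Smad5 (-0.40) were not. Of 12 regulators, 2 were lower, the corepressors Tgif1 (-0.60) and Tgif2 (-0.64), a share near the 13.8% of all tested genes. Bambi, a pseudoreceptor that blocks TGF-beta signalling, had the highest ratio of the regulators (9.98 and 13.4 CPM, 0.43), and Fkbp1a, which binds the type I receptor, stood at 0.21. Within classes Bambi was called higher in HSC-like cells (11.98 and 26.9 CPM, 1.17, 0.85 to 1.48), in lymphoid-primed-like cells (0.76) and in megakaryocyte-primed-like cells (0.78). Among inhibitors in HSC-like cells, Bambi was therefore called higher and Ski lower, while Smad7 and Skil differed by less than 1.5-fold.

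Of 8 known response genes, 6 were lower over all cells, against 13.8% of all tested genes. Cdkn1c, the cell cycle inhibitor p57 that marks quiescent stem cells, was at 9.11 and 2.67 CPM (-1.77). Tsc22d1, a TGF-beta-stimulated gene, was at 245 and 92.7 CPM (-1.40), and Ndrg1 was at 44.0 and 16.7 CPM (-1.40). Junb, Klf10 and Cdkn1b, named because they complete the 6, were at -0.72, -0.66 and -0.60, while Myc (0.12) and Cdkn1a, the inhibitor p21 (-0.42), were within the limit. Within HSC-like cells Cdkn1c (31.2 and 17.0 CPM, -0.87) and Ndrg1 (-1.13) were called lower. Ndrg1 was called lower in 5 of 6 classes, and in the neutrophil-primed-like one it was at 14.4 and 9.92 CPM (-0.54, -0.91 to -0.15), just within the limit. In lymphoid-primed-like cells Tsc22d1 (-0.34), Junb (-0.18), Klf10 (-0.15) and Cdkn1b (0.04) were not called, and Cdkn1c was below the minimum. In the mitotic-gene cluster Tsc22d1 was called lower (-0.90), and Junb (-0.24), Klf10 (-0.36) and Cdkn1b (-0.38) were not.

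Direction was not uniform among response genes in megakaryocyte-primed-like cells. There, Cdkn1a (53.7 and 89.95 CPM, 0.74) and Junb (300 and 492 CPM, 0.71) were called higher, and Cdkn1c (-1.70) and Ndrg1 (-1.24) lower. Of the E proteins that Id proteins bind, Tcf4 was lower over all cells (207 and 108 CPM, -0.93), Tcf12 was at -0.52 and Tcf3 was even (-0.03). The pathway counts within classes were 3 higher and 3 lower of 40 in HSC-like cells, 3 and 8 of 37 in megakaryocyte-primed-like cells, 1 and 2 of 34 in lymphoid-primed-like cells, 1 and 1 of 30 in neutrophil-primed-like cells, 0 and 2 of 34 in the S-phase-gene cluster and 0 and 3 of 34 in the mitotic-gene cluster. Backgrounds are those given for each class above.

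Over 21 profiles, each a cluster in a library with at least 50 cells, the 9 genes were set beside all genes by the Pearson correlation of log2(CPM + 1). The genes most like Smad7 included Gpatch8 and Chd6 (both r = 0.96). Those most like Skil were Kmt2c and Egr1 (both 0.96) and Ppp1r15a (0.95), and those most like Tgfbr2 were Abcg1 (0.95), Zmynd11 and Tspyl1 (both 0.94). Id1 was most like Commd7 (0.91), Tm2d3 (0.90) and Ss18 (0.84), Id2 most like Hint3, Sp100 (both 0.91) and Ncoa7 (0.88), and Id3 less closely followed by any gene, with Dusp6 (0.83) and Elk4 (0.82) among the closest. For Tgfb1 they were Camta1 (0.90), Timm17b (0.86) and Prps1 (0.81), for Tgfbr1 Bri3 (0.90), Sft2d2 (0.89) and Fchsd2 (0.87), and for Ski Epb41, Cpne2 (both 0.93) and Rab18 (0.90).

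Among the 9 themselves, Tgfbr2 and Skil (r = 0.89), Ski and Skil (0.83), Tgfbr1 and Tgfbr2 (0.76) and Tgfbr2 and Smad7 (0.75) varied together most. The Id genes did not vary together, with -0.20 for Id1 and Id2, 0.22 for Id1 and Id3 and -0.28 for Id2 and Id3. The lowest value of any pair was that of Tgfb1 and Id2 (-0.71). The profiles share 2 libraries and their depth, so these correlations describe the data only.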

How the data were processed

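Counts of UMIs per gene and barcode were deposited by the authors for 2 libraries, 1 per group, and were used as raw counts. The submitters' processing notes name Cell Ranger 2.1.1 and mm10, and the matrix headers give software version 3.1.0. Barcodes with at least 1000 UMIs, 500 genes and at most 10% mitochondrial UMIs were kept. Scrublet (expected rate 0.06) marked 2 control and 16 irradiated cells, which were left out; it has not worked at this rate, so an alternative dropped the 6% of cells with the highest scores. No UMI was corrected for free RNA.

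UMIs were summed per library or class and divided by the total (CPM). Log2 ratios carry exact Clopper-Pearson intervals for counting error. Their code was checked on simulated Poisson counts of whole libraries. Such counts follow the model of the interval, so the check does not cover UMIs gathered in few cells or the sums of single classes. With 1 library a group there is no test. Clustering used scanpy 1.11.5 and leidenalg 0.10.2 under Python 3.11.15 (2000 variable genes, 30 components, 15 neighbours from each library, resolution 1), without the members and pathway genes. A cluster was named when at least 3 markers of 1 list were among its 25 leading genes and at least 3 occurred in 10% or more of its cells, a rule chosen with the data in view. For shares, cells were thinned to 5000 UMIs, which left out 66 control and 59 irradiated cells. Of the pathway list, up to 2 genes with the highest and 2 with the lowest ratio per role are named, with others picked after their values were seen. Some genes most like a member are not reported here. The members and lists were chosen with earlier results of these data known. GENCODE M21 matched 30934 of 31053 gene identifiers.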

Additional observations from a re-analysis of the deposited data

Results flagged for a closer look

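Smad7 had opposite directions in 2 classes under the same contrast. In HSC-like cells its log2 ratio of irradiated over control CPM was 0.14 (0.05 to 0.23), and in the mitotic-gene cluster it was -0.90 (-0.97 to -0.83). With 1 library a group, the difference was not tested. The value in HSC-like cells ranged from -0.15 to 0.26 over the alternatives, and that in the mitotic-gene cluster from -0.94 to -0.32.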

How the results depend on the processing

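No paired analysis was possible because each group is 1 library, so the groups share fewer than 2 replicate numbers and no library can be left out. No result changed direction past the limit. For the 9 genes over all cells, the count called higher was 1 (Id2) with each cell weighted equally, with cells thinned to 5000 UMIs and, added after seeing the data, without erythroid-primed-like and neutrophil-primed-like cells, in place of 0, and the count called lower was 2 with a minimum of 20 CPM. The pathway counts were 0 higher and 7 lower with that minimum, 7 and 29 with no minimum, 2 and 22 at a looser ratio, and 0 and 4 at a ratio of 2, in place of 1 and 13. The count lower in HSC-like cells was 0 in place of 1 in the 7 alternatives that give one, and the count higher was 2 with each cell weighted equally. In the S-phase-gene cluster 1 was lower in place of 2 in all 6. In lymphoid-primed-like cells 1 was lower in place of 2 at resolution 0.5, with 30 neighbours from all cells and at a mitochondrial limit of 5%. In neutrophil-primed-like cells the count lower, 0 as reported, was 3 with marker genes left out of clustering and with each cell weighted equally and 1 in the other 6. In the mitotic-gene cluster 2 were higher at resolution 2 in place of 1, and in megakaryocyte-primed-like cells 1 was lower in place of 0 with each cell named by its own markers. Scaling by the median of ratios moves every log2 ratio by 0.06. Depth limits the classes: Id2 and Id3 in neutrophil-primed-like control cells rest on 31 and 18 UMIs.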
